A study of Mus musculus with 12 samples.

Results

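Plekha7, Jazf1, Gpatch2, Anxa9, Capza1 and Cspg4 are 6 genes of the 24421 measured that were higher in unstimulated Mir182ΔM/ΔM macrophages than in WT macrophages and lower in Mir182mTg macrophages than in Control macrophages. The genes were chosen by those unstimulated values, so both of these contrasts describe how they were picked and carry no test here. What follows is mainly how the genes responded to RANKL in each genotype, how the genotypes compared after RANKL, and how the 2 unstimulated reference groups, WT and Control, differed.

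The data were RNA-seq values of mouse bone marrow macrophages (BMMs), the precursors of osteoclasts, in 12 libraries that fall into 6 groups of 2 replicates. All mice were C57BL/6 by their labels, and every group, references included, carried LysMcre(+), in which the lysozyme M promoter drives Cre recombinase in myeloid cells. In the loss of function experiment the genotypes were Mir182+/+LysMcre(+), called WT, and Mir182flox/floxLysMcre(+), called Mir182ΔM/ΔM, each unstimulated (basal) and with RANKL for 5 days. In the gain of function experiment they were LysMcre(+), called Control, and LSL-Mir182LysMcre(+), called Mir182mTg, in which Cre removes a stop cassette ahead of a Mir182 transgene, and both were basal. Marrow cells had first been cultured with M-CSF for 3 days, and no label gives the age of the mice or says whether mice were pooled. The study's methods call the replicates biological, but no label ties a library to an animal, so the p-values measure the spread between these libraries and may be partly technical.

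The libraries held 24951280 to 33050619 reads on genes, and levels are in CPM, reads scaled to the same total in every library, at which 3 reads correspond to 0.0908 to 0.120 CPM. Of 8 macrophage markers, 8 reached 5 CPM in each group. Their sum was 12202 to 12658 CPM in WT basal and 11080 to 11264 CPM in Mir182ΔM/ΔM basal cells. It was 6715 to 6782 CPM in Control and 7004 to 7073 CPM in Mir182mTg cells, so the WT and Control references differed in it. After RANKL it was 6097 to 6185 CPM in WT and 6366 to 6455 CPM in Mir182ΔM/ΔM cells. The summed level of 8 osteoclast markers was 116 to 168 CPM in the basal libraries, 10549 to 10762 CPM in WT cells after RANKL and 3155 to 3183 CPM in Mir182ΔM/ΔM cells after RANKL. By their labels the first replicates are polyA RNA and the second total RNA, and the ribosomal RNA gene Rn45s was at 742 to 1176 CPM in the former and 9778 to 21273 CPM in the latter. The row named Mir182 had 2.39 and 4.40 CPM in Mir182mTg cells and at most 0.0370 CPM elsewhere, which checks the transgenic label and not the deletion, because mature miRNAs are not captured in these libraries.

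In the loss of function experiment, the WT libraries after RANKL differed from the rest. Lyz2, the gene whose locus carries Cre in LysMcre mice, was at 4117 and 4288 CPM in them and at 22.5 to 44.0 CPM in the WT basal and all Mir182ΔM/ΔM libraries. It was at 5783 to 7062 CPM in the Control and Mir182mTg libraries. Ifi202b, an interferon-inducible gene whose expression differs between inbred strains, went the other way, with 0.972 and 1.12 CPM in WT cells after RANKL, 82.1 to 152 CPM in the other loss of function libraries and at most 0.0908 CPM in the gain of function libraries. The RANKL response in WT cells, the genotype comparison after RANKL and the comparison of Control with WT each set a group with high Lyz2 against a group with low Lyz2, whereas the RANKL response in Mir182ΔM/ΔM cells does not. The part of this difference between libraries in the results was not tested, and the RANKL response in WT cells is therefore also given against the Control baseline.

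**Figure D1:**
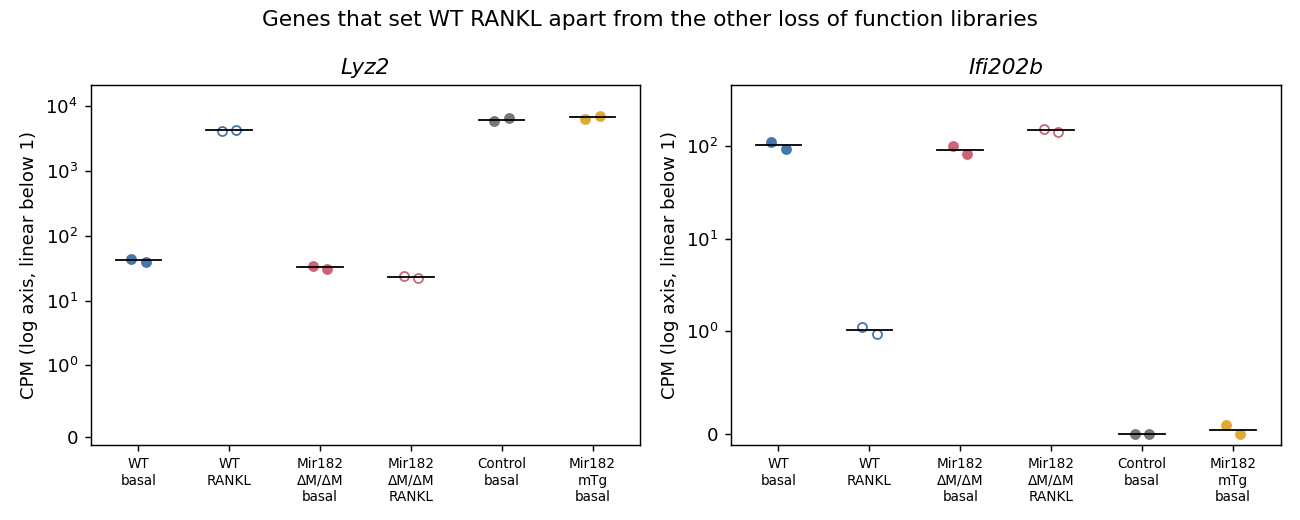
Levels of Lyz2 and Ifi202b in CPM (vertical axes, log scale and linear below 1) in the 12 libraries by group (points, libraries; lines, means of 2; open points, RANKL). The WT libraries after RANKL sit at 4117 and 4288 CPM of Lyz2, near Control and Mir182mTg, while WT basal and Mir182ΔM/ΔM libraries sit at 22.5 to 44.0 CPM.

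The 6 genes have no common pathway. MicroRNAs lower the stability and translation of messages whose 3′ UTR pairs with the miRNA seed, so a direct target of a miRNA would be higher when it is deleted and lower when it is overexpressed, and indirect effects can give the same pattern. PLEKHA7 is a protein of adherens junctions that binds p120 catenin and has been linked to the microprocessor, which makes miRNAs. JAZF1 is a zinc finger protein of the NuA4/TIP60 histone acetyltransferase complex and binds the nuclear receptor TR4. GPATCH2 is a G-patch protein, of a family that activates RNA helicases such as DHX15. ANXA9 is an atypical annexin, CAPZA1 is an α subunit of the capping protein that closes the barbed end of actin filaments, and CSPG4 (NG2) is a transmembrane proteoglycan best known from pericytes and glial precursors.

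The mature miRNA and every match to its seed in the annotated 3′ UTRs of the 6 genes are shown because the miRNA acts through such matches. The levels that chose the genes do not include them, but Jazf1 and Gpatch2 also stand on a list of miR-182 targets that the study drew up with a target database, so sites in these genes are not independent of the choice. The miRNA is transcribed from the minus strand at chr6:30165962-30165986 (RefSeq, GRCm38.p6), and its seed, bases 2 to 8, is in capitals.
mmu-miR-182-5p: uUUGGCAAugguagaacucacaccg
In the sites below (GENCODE vM21, GRCm38, message strand) capitals mark the bases complementary to the seed and, where present, the A that follows them.
Plekha7, chr7:116123623-116123652, minus strand: cttcatgacatTTGCCAAAataagatttta
Jazf1, chr6:52769281-52769310, minus strand: gtagttctctaTTGCCAAcaattttgttta
Jazf1, chr6:52769258-52769287, minus strand: ttgtttagacgTTGCCAAttcttgcaacta
Gpatch2, chr1:187234285-187234314, plus strand: aattgcttgctTTGCCAAAtgctaactaaa

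A site for miR-182-5p was defined as a match to bases 2 to 7 followed by A (TGCCAAA, message strand only), and 2 of the 6 genes, Plekha7 and Gpatch2, held it in an annotated 3′ UTR. Of all 21020 genes with an annotated 3′ UTR, 12.5% held such a site. With a match to bases 2 to 8 (TTGCCAA, which overlaps the first definition), 3 of 6 genes held a site beside 11.4% of all genes, and with either definition 3 of 6 beside 18.3%. The longest 3′ UTRs of the 3 genes with a site are 2421, 1407 and 3127 bases, above the median of 961 bases over all genes, and longer 3′ UTRs hold more matches by chance. The Plekha7 match lay 1191 bases into a 3′ UTR of 1338 bases and was annotated in 3 transcripts. The pair of Jazf1 matches lay 905 and 928 bases into a 3′ UTR of 1407 bases. The Gpatch2 match lay 311 bases into a 3′ UTR of 431 bases that belongs to 1 transcript. No match was in the annotated 3′ UTRs of Anxa9, Capza1 or Cspg4, whose longest are 694, 2205 and 980 bases. A match is a description of letters and not a shown binding site.

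**Figure D2:**
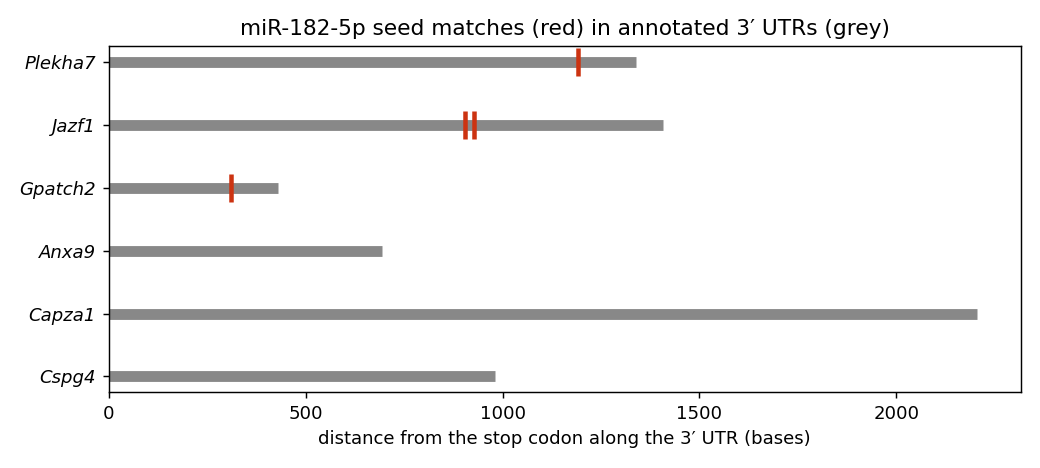
Matches to the miR-182-5p seed under either definition (red) along the annotated 3′ UTR (grey) of each gene, in bases from the stop codon; for genes with a match the 3′ UTR drawn is the longest that holds it, for the others the longest annotated. Plekha7 has 1 match at 1191 bases, Jazf1 has 2 at 905 and 928 bases, Gpatch2 has 1 at 311 bases, and Anxa9, Capza1 and Cspg4 have none.

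In the contrasts that chose the genes, the 6 differed widely in how far they moved. Plekha7 was at 0.306 and 0.802 CPM in WT basal cells, which is 10 and 20 reads, and at 13.5 and 15.0 CPM in Mir182ΔM/ΔM basal cells, a ratio of means of 25.7. For the other genes the mean in Mir182ΔM/ΔM basal cells was 1.22 times (Capza1) to 2.10 times (Jazf1) that in WT basal cells. Plekha7 was also the gene that differed most in the gain of function cells, at 8.68 and 8.92 CPM in Control and 0.635 and 0.716 CPM in Mir182mTg cells, 13.02 times lower. The other genes were 1.64 times (Capza1) to 4.55 times (Jazf1) lower in Mir182mTg than in Control cells. With an adjusted p under 0.05 and a change of at least 1.2-fold, 317 genes were higher in Mir182ΔM/ΔM basal cells (limma, 2.72% of those tested) and 19 were lower in Mir182mTg cells (edgeR, 0.158%). Just inside the first cut lay Xylt1, Heatr5a and Ifi35 (log2 differences of 0.44, 0.44 and 0.86), and just outside it Fabp7, Plk4 and Recql4 (0.66, 0.44 and 0.41). Just inside the second lay Cspg4, Capza1 and Apoe (-0.82, -0.73 and -0.73), and just outside it Kitl, Rps2 and 2500002B13Rik (-0.82, -1.78 and -1.62). 8 genes passed both cuts, and 5 of them were among the 6 genes described here. Gpatch2 missed the second cut (adjusted p = 0.0941, edgeR), and passed it when the replicate number was a block (adjusted p = 3.2e-07, edgeR). With that block in both contrasts 97 genes passed both cuts, the 6 genes described here among them. With edgeR in both contrasts and no block, 7 genes passed both cuts, and 4 of them were among the 6.

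All 6 genes passed the filter of 1 CPM in at least 2 libraries, but Plekha7 passed it through the groups where it is high, since it was under 1 CPM in every WT basal and Mir182mTg library. Each response below starts from a group that the choice of genes used. WT basal cells were chosen as low and Mir182ΔM/ΔM basal cells as high, so rises in WT and falls in Mir182ΔM/ΔM are favoured by the choice. Control basal cells were chosen as high relative to Mir182mTg cells, so lower values against the Control baseline are favoured too. Changes are differences in log2(CPM + 1) from limma with the standard error (SE) and the Benjamini-Hochberg adjusted p over all genes of the contrast, and this scale understates the change of low genes. The fits have no term for the replicate number unless a block is named.

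**Figure D3:**
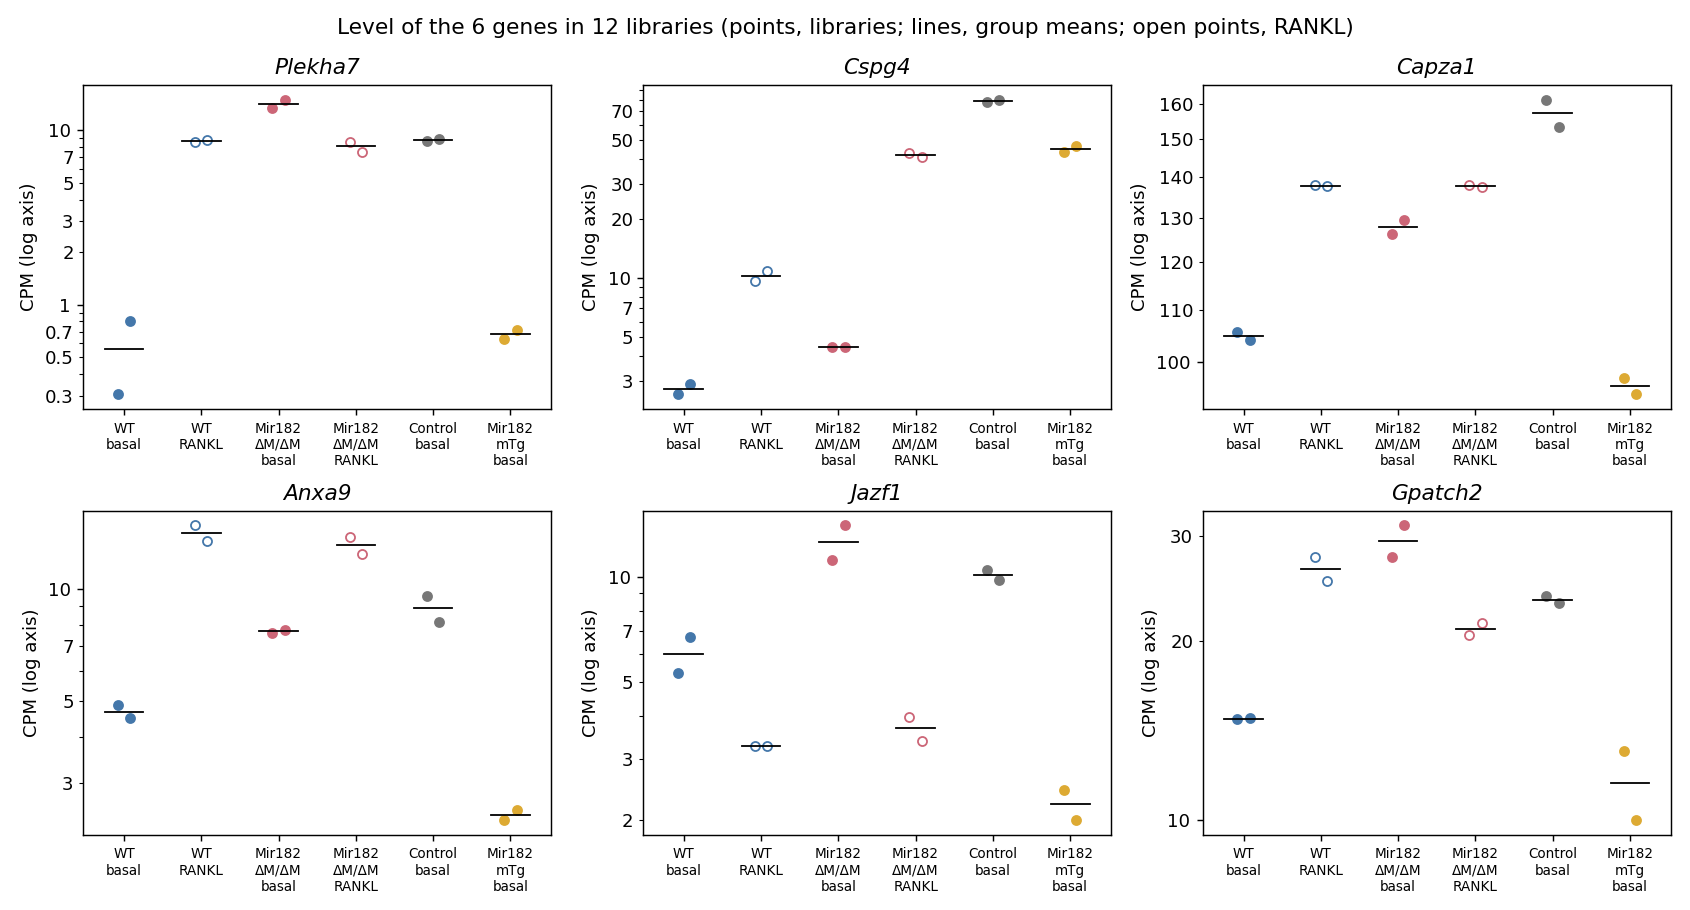
Level in CPM (vertical axes, log scale, a range of its own in each panel) of the 6 genes in the 12 libraries by group (points, libraries; lines, means of 2; open points, RANKL). Plekha7 is under 1 CPM in WT basal and Mir182mTg cells and above 7 CPM in the other groups, and Cspg4 is highest in Control cells, at 78.5 and 80.4 CPM.

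The question of the first comparison is how the genes changed when WT precursors were driven toward osteoclasts. Of the 6 genes, 5 rose and Jazf1 fell in WT cells with RANKL. Over all 11673 genes tested, 40.6% were called higher and 22% lower, so a rise was the commonest outcome for any gene. The ranges of basal and RANKL libraries did not overlap for any of the 6, as for 51% of all genes upward and 28.6% downward. The median difference of all genes was 0.19 on the log2 scale, and that of the 6 genes was 1.11. With TMM factors, which centre the median of all genes, 3359 genes were higher and 3558 lower, against 4738 and 2566 without them, and the calls and directions of the 6 genes stayed as they were.

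Plekha7 went from 0.306 and 0.802 CPM in WT basal cells to 8.54 and 8.85 CPM with RANKL. The ranges did not overlap, and the ratio was 27.9 in replicate 1 and 11.04 in replicate 2, since the 2 basal libraries themselves differed 2.62-fold. The difference was 2.66 (SE 0.16, limma adjusted p = 9.26e-06).

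Cspg4 went from 2.57 and 2.89 CPM to 9.62 and 10.9 CPM, 3.76 times higher, a difference of 1.59 (SE 0.099, limma adjusted p = 1.04e-05). Anxa9 went from 4.86 and 4.49 CPM to 14.8 and 13.5 CPM, 3.02 times higher, a difference of 1.41 (SE 0.098, limma adjusted p = 1.78e-05). For both genes the replicates moved by nearly the same factor, with ratios of 3.74 and 3.78 for Cspg4 and of 3.05 and 3.00 for Anxa9.

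Gpatch2 rose from 14.8 and 14.8 CPM to 27.7 and 25.2 CPM, 1.79 times higher, a difference of 0.80 (SE 0.093, limma adjusted p = 0.000255). Capza1 rose from 106 and 104 CPM to 138 and 138 CPM, a difference of 0.39 (SE 0.055, limma adjusted p = 0.000642). Its rise was 1.31-fold, the smallest of the 5, and with TMM factors it came to 0.18 (limma adjusted p = 0.022). Jazf1 went the other way, from 5.29 and 6.73 CPM to 3.27 and 3.27 CPM, 1.84 times lower, a difference of -0.71 (SE 0.15, limma adjusted p = 0.00485).

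Against the other unstimulated reference these responses looked different. With Control basal cells in place of WT basal cells, 1 gene was higher, 3 were lower and 2 did not pass, beside 29.6% of all genes called higher and 23.1% lower. Plekha7 was at 8.68 and 8.92 CPM in Control cells, so the WT value after RANKL overlapped it and the difference was -0.02 (SE 0.14, limma adjusted p = 0.939). Gpatch2, at 23.8 and 23.1 CPM in Control cells, differed by 0.17 (SE 0.12, limma adjusted p = 0.267).

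Cspg4, at 78.5 and 80.4 CPM in Control cells, was 7.74 times lower in WT cells after RANKL (difference -2.84, SE 0.084, limma adjusted p = 9.45e-09), the reverse of its direction against WT basal cells. Capza1 also reversed, to a difference of -0.19 (SE 0.049, limma adjusted p = 0.0101). Anxa9 remained higher after RANKL (0.62, SE 0.10, limma adjusted p = 0.000645) and Jazf1 remained lower (-1.38, SE 0.14, limma adjusted p = 3.22e-05). Anxa9 and Jazf1 were thus the genes called in the same direction against either reference. These values set libraries of different experiments against each other. Control cells were chosen as high, which favours lower values after RANKL, so they are not a neutral reference for these genes.

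The second comparison asks the same of cells without miR-182, within libraries that are alike in Lyz2. In Mir182ΔM/ΔM cells with RANKL, Cspg4 and Anxa9 rose, Plekha7, Jazf1 and Gpatch2 fell, and Capza1 did not pass. Of all genes 30.5% were called higher and 26.3% lower here, and 41.7% and 36.2% had ranges that did not overlap, as all 6 genes did, and the median difference of the 6 genes was -0.18 beside 0.05 for all genes.

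Plekha7 fell from 13.5 and 15.0 CPM to 8.61 and 7.55 CPM, 1.76 times lower, a difference of -0.75 (SE 0.16, limma adjusted p = 0.00599). It fell in Mir182ΔM/ΔM cells to about the level it reached by rising in WT cells. With a pseudocount of 0.1 in place of 1 the difference was -0.81 and did not pass (limma adjusted p = 0.0729).

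Jazf1 fell from 11.2 and 14.1 CPM to 3.97 and 3.38 CPM, 3.43 times lower (difference -1.54, SE 0.15, limma adjusted p = 0.000119). Gpatch2 fell from 27.7 and 31.3 CPM to 20.5 and 21.4 CPM, 1.41 times lower (difference -0.47, SE 0.093, limma adjusted p = 0.00396). Jazf1 thus fell in both genotypes, and Gpatch2 fell here where it had risen in WT cells.

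Cspg4 rose from 4.44 and 4.48 CPM to 43.2 and 41.4 CPM, 9.48 times higher (difference 2.99, SE 0.099, limma adjusted p = 8.24e-07). Anxa9 rose from 7.62 and 7.76 CPM to 13.8 and 12.4 CPM, 1.70 times higher (difference 0.70, SE 0.098, limma adjusted p = 0.000772). Capza1 was at 126 and 129 CPM before and 138 and 138 CPM after RANKL, a difference of 0.11 with a 95% interval from -0.02 to 0.24 (limma adjusted p = 0.134). With the replicate number as a block the same difference passed (limma adjusted p = 0.00791).

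**Figure D4:**
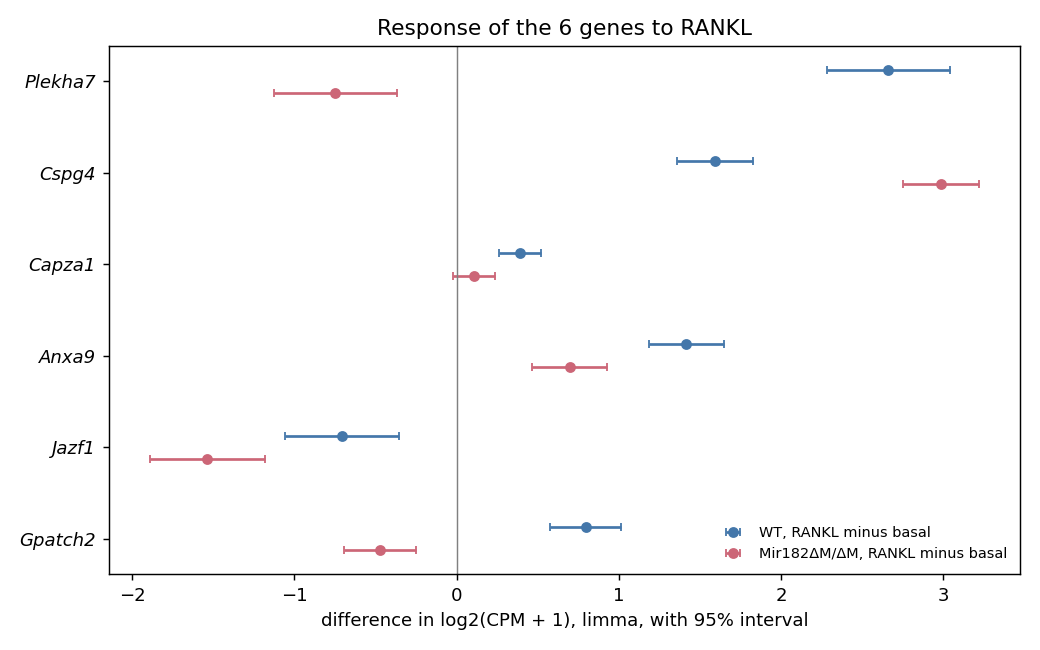
Difference in log2(CPM + 1) between RANKL and basal cells (horizontal axis) for the 6 genes in WT (blue) and Mir182ΔM/ΔM cells (red), with 95% intervals from limma. Plekha7 lies at 2.66 in WT and -0.75 in Mir182ΔM/ΔM cells, Gpatch2 at 0.80 and -0.47, and Cspg4 at 1.59 and 2.99.

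The response to RANKL differed between the genotypes for all 6 genes in the interaction term of the fit, which subtracts the WT response from the Mir182ΔM/ΔM response. It was negative for 5 genes and positive for Cspg4, beside 17.2% of all genes called negative and 7.46% called positive. The sign for the 5 genes is that which the choice of genes favours, because the term contains the basal difference that chose them. Plekha7 had the term of greatest size, -3.41 (SE 0.23, limma adjusted p = 0.000115), and Gpatch2 followed with -1.27 (SE 0.13, limma adjusted p = 0.000614). Plekha7 and Gpatch2 moved in opposite directions in the genotypes. Cspg4, with 1.39 (SE 0.14, limma adjusted p = 0.000525), rose in both and by more in Mir182ΔM/ΔM cells.

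The term was -0.72 for Anxa9 (SE 0.14, limma adjusted p = 0.00935), which rose in both genotypes, and -0.83 for Jazf1 (SE 0.21, limma adjusted p = 0.028), which fell in both. It was -0.28 for Capza1 (SE 0.078, limma adjusted p = 0.0371). With TMM factors the calls of Jazf1 (-0.70, limma adjusted p = 0.0613) and Capza1 (-0.11, limma adjusted p = 0.366) were lost, and 1237 genes were positive and 1273 negative, against 871 and 2004 without them. Leaving out single libraries ended the call of Capza1 in 8 of 8 cases and that of Jazf1 in 6 of 8.

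The genotype differences after RANKL are between libraries that did not choose the genes, although the spread in the fit was estimated over all 8 loss of function libraries. Cspg4 was higher in Mir182ΔM/ΔM cells, Gpatch2 was lower, and the other 4 genes did not pass. Over all genes 14.3% were called higher and 30.9% lower, so the count of 1 of 6 in each direction was near the share of all genes. The median difference of the 6 genes was -0.05 and that of all genes -0.14. Ranges that did not overlap were found for Jazf1 and Cspg4 upward (23.1% of all genes) and for Gpatch2 downward (48.6%). A block on the replicate number gave 2737 higher and 5809 lower genes, and TMM factors gave 2439 and 2353, against 1666 and 3609.

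After RANKL Cspg4 held 9.62 and 10.9 CPM in WT and 43.2 and 41.4 CPM in Mir182ΔM/ΔM cells, 4.12 times higher (difference 1.95, SE 0.099, limma adjusted p = 1.06e-05). This was in the same direction as the basal difference, and the interaction term above gives how much larger it was. Gpatch2 held 27.7 and 25.2 CPM in WT and 20.5 and 21.4 CPM in Mir182ΔM/ΔM cells, a difference of -0.32 (SE 0.093, limma adjusted p = 0.0272), opposite in sign to the basal difference. The Gpatch2 call was lost when only the compared libraries were fitted (limma adjusted p = 0.0517), with TMM factors (-0.17, limma adjusted p = 0.176) and when WT replicate 1, Mir182ΔM/ΔM replicate 1 or Mir182ΔM/ΔM replicate 2 was left out (limma adjusted p = 0.144, 0.12 and 0.0698, and -0.25, -0.29 and -0.35 as differences).

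Plekha7 held 8.54 and 8.85 CPM in WT and 8.61 and 7.55 CPM in Mir182ΔM/ΔM cells after RANKL, with overlapping ranges and a difference of -0.10 (95% interval -0.48 to 0.28, limma adjusted p = 0.654). Its level after RANKL was thus not shown to depend on genotype. Jazf1 differed by 0.13 (95% interval -0.22 to 0.48, limma adjusted p = 0.52), Anxa9 by -0.10 (-0.33 to 0.13, limma adjusted p = 0.43) and Capza1 by -0.0006 (-0.13 to 0.13, limma adjusted p = 0.994). Capza1 passed in the fit with the replicate block and TMM factors together (0.15, limma adjusted p = 0.000606).

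**Figure D5:**
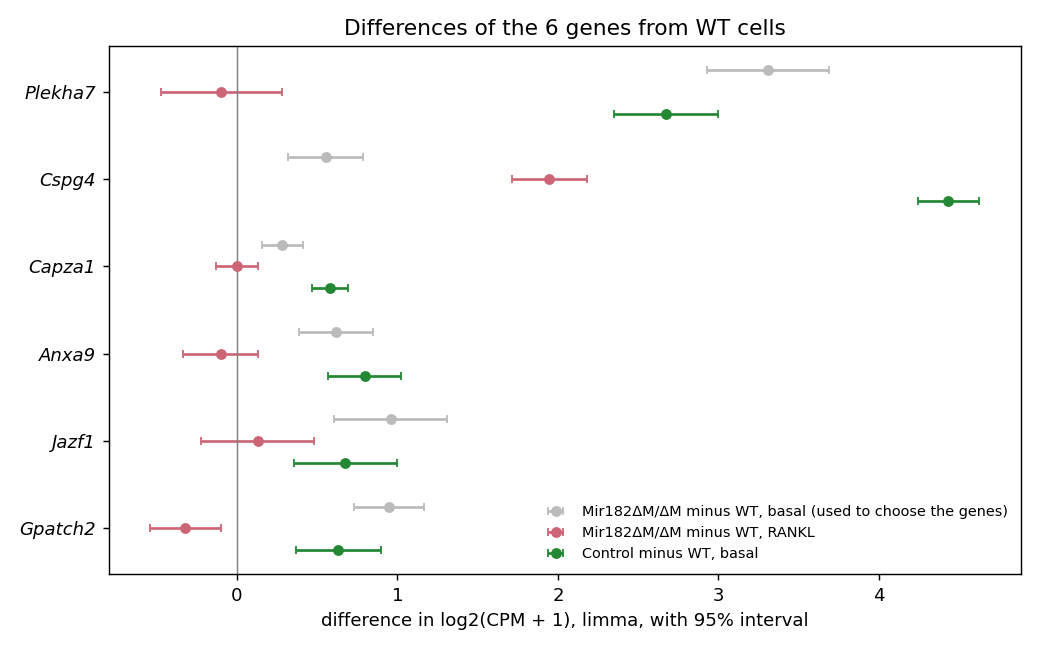
Difference in log2(CPM + 1) (horizontal axis) of Mir182ΔM/ΔM from WT cells when basal (grey, used to choose the genes) and after RANKL (red), and of Control from WT basal cells (green), with 95% intervals from limma. After RANKL the intervals of Plekha7, Jazf1, Anxa9 and Capza1 include 0 while Cspg4 lies at 1.95, and all 6 genes lie above 0 in Control cells.

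WT and Control are both Cre-carrying references without a change in Mir182, so their comparison measures how far the reference groups of the experiments lie apart. All 6 genes were higher in Control than in WT basal cells, beside 32.4% of all genes called higher and 19.5% lower. Their ranges did not overlap with those of WT cells, as for 44.4% of all genes upward and 27.8% downward. The median difference of the 6 genes was 0.74 and that of all 11776 genes tested 0.11. The choice of genes favours this direction, since it took genes that were low in WT relative to Mir182ΔM/ΔM cells and high in Control relative to Mir182mTg cells. With TMM factors 2972 genes were higher and 2985 lower, against 3817 and 2300, and the 6 calls were kept.

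Cspg4 held 2.57 and 2.89 CPM in WT and 78.5 and 80.4 CPM in Control basal cells, 29.1 times higher (difference 4.43, SE 0.084, limma adjusted p = 3.77e-09). Only 5 of all genes tested had a smaller p in this contrast. Mir182mTg cells, which were chosen as lower than Control, still held 43.7 and 46.9 CPM, 16.6 times the WT mean.

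Plekha7 held 0.306 and 0.802 CPM in WT and 8.68 and 8.92 CPM in Control cells, 15.9 times higher (difference 2.68, SE 0.14, limma adjusted p = 8.55e-07). Its low level was shared by WT basal cells and Mir182mTg cells, at 0.635 and 0.716 CPM, which did not differ beyond their spread. Thus the gene was low in a reference group of the loss of function experiment and in the altered group of the gain of function experiment.

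For the other 4 genes the Control mean was 1.499 to 1.90 times the WT mean. Anxa9 held 4.86 and 4.49 CPM in WT and 9.58 and 8.16 CPM in Control cells, 1.90 times higher (difference 0.80, SE 0.10, limma adjusted p = 0.000158). Jazf1 was at 5.29 and 6.73 CPM and at 10.5 and 9.79 CPM, 1.69 times higher (difference 0.68, SE 0.14, limma adjusted p = 0.00325). Both genes were also higher in Mir182ΔM/ΔM than in WT basal cells by the choice of genes.

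Gpatch2 held 14.8 and 14.8 CPM in WT and 23.8 and 23.1 CPM in Control cells, 1.59 times higher (difference 0.63, SE 0.12, limma adjusted p = 0.00168). Capza1 was at 106 and 104 CPM and at 161 and 153 CPM, 1.499 times higher (difference 0.58, SE 0.049, limma adjusted p = 1.41e-05). For Cspg4 and Capza1 the difference between the references was larger than the basal genotype difference (0.55 and 0.28). The same held by less for Anxa9, with 0.80 beside 0.62. For Cspg4 the Control mean was 17.8 times that of Mir182ΔM/ΔM basal cells.

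In order of level over the 6 groups, Mir182mTg cells were lowest for Jazf1, Gpatch2, Anxa9 and Capza1, and WT basal cells were lowest for Plekha7 and Cspg4. Mir182ΔM/ΔM basal cells were highest for Plekha7, Jazf1 and Gpatch2. WT cells after RANKL were highest for Anxa9 and Control cells for Capza1 and Cspg4. Some neighbours in these orders were not apart. For Plekha7 the ranges of WT basal and Mir182mTg cells overlapped, as did those of Mir182ΔM/ΔM cells after RANKL, WT cells after RANKL and Control cells in turn. The ranges of WT and Mir182ΔM/ΔM cells after RANKL also overlapped for Anxa9 and Capza1, and those of WT after RANKL and Mir182ΔM/ΔM basal cells for Gpatch2. The highest group mean was 1.64 times the lowest for Capza1, 2.56 times for Gpatch2, 5.66 times for Jazf1, 5.73 times for Anxa9, 25.7 times for Plekha7 and 29.1 times for Cspg4.

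Levels of different genes were compared only per length, as CPM per kilobase of the length that the deposited RPKM imply. In WT basal cells Capza1 was at 32.9 CPM per kilobase, and the other 5 genes were at 0.0785 (Plekha7) to 3.25 (Gpatch2) CPM per kilobase. Cspg4 went from 0.339 CPM per kilobase in WT basal cells to 9.87 in Control cells, where it was second to Capza1 at 49.4.

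Over the 12 libraries, Plekha7 and Gpatch2 had the pattern most alike among the 6, with Pearson's r = 0.93 on log2(CPM + 1). Of the 9791 genes compared, Gpatch2 was also the gene most like Plekha7, and Plekha7 the gene most like Gpatch2. Capza1 was most like Anxa9 (r = 0.86) and Plekha7 (r = 0.85). Jazf1 was most like Inppl1 (r = 0.93) and Synj2 (r = 0.92), and Anxa9 was most like Zfp213 (r = 0.92) and Rexo1 (r = 0.88).

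Cspg4 followed Pno1 (r = 0.99) and Galnt7 (r = 0.98), and its r with the other 5 genes was between -0.26 and 0.32. Pno1 was at 30.3 and 30.4 CPM in WT basal, 71.4 and 69.7 CPM in Control and 67.9 and 68.1 CPM in Mir182mTg cells. These coefficients describe libraries in 6 groups that share their replicate structure, and for the 6 genes they contain the contrasts that chose them.

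CSPG4 is a pericyte marker, and of 10 pericyte and stromal genes Rgs5 and Des were at most 0.0399 CPM in any library and Pdgfra at most 0.187 CPM. Acta2 was at 2.93 to 5.78 CPM, and Col1a1 and Col1a2 reached 13.9 and 16.01 CPM in WT cells after RANKL, in replicate 2, where Cspg4 was at 10.9 CPM. Pdgfrb was at 2.12 and 2.47 CPM in WT cells after RANKL and at most 0.669 CPM elsewhere. The sum of the 10 was 11.8 to 24.8 CPM in WT basal, 8.92 to 28.1 CPM in Mir182ΔM/ΔM basal, 4.60 to 20.1 CPM in Mir182mTg, 5.33 to 21.9 CPM in Control, 20.7 to 40.8 CPM in WT cells after RANKL and 22.0 to 36.7 CPM in Mir182ΔM/ΔM cells after RANKL. These ranges overlapped between basal and RANKL cells of each genotype and between WT and Control. In each group the lower end was replicate 1 and the upper end replicate 2. Compared by replicate number, the sum rose with RANKL in both genotypes and was lower in Control than in WT basal cells. PLEKHA7 is best known from epithelia, and the sum of 6 epithelial markers was 0.0611 to 0.0802 CPM in WT basal, 0.185 to 0.224 CPM in Mir182ΔM/ΔM basal, 0.720 to 1.08 CPM in WT cells after RANKL and 1.22 to 1.54 CPM in Mir182ΔM/ΔM cells after RANKL. It was 1.47 to 2.24 CPM in Control and Mir182mTg cells, most of it from Cdh1. Krt8 was at 0 in every library, and Epcam was at 0.758 and 0.396 CPM in WT cells after RANKL and at most 0.131 CPM elsewhere. The summed levels of 6 neutrophil markers were 79.4 to 87.1 CPM in WT basal and 95.3 to 101 CPM in Mir182ΔM/ΔM basal cells. They were 48.4 to 50.1 CPM in Control and 102 to 113 CPM in Mir182mTg cells. After RANKL they were 19.0 to 19.3 CPM in WT and 5.59 to 5.81 CPM in Mir182ΔM/ΔM cells. The sums of 6 lymphocyte and 5 dendritic and mast cell markers were at most 0.336 and 3.13 CPM. The part of these cell types in the results was not tested. In bulk RNA, fewer cells that express a gene and less of its RNA per cell cannot be told apart.

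The partners of each gene were taken from lists of its known complexes or family, and the counts are those that passed over all genes, with the counts under TMM factors where they differ. Counts without TMM factors are to be read against the shares of all genes. With RANKL these were 40.6% higher and 22% lower in WT and 30.5% and 26.3% in Mir182ΔM/ΔM cells. They were 32.4% and 19.5% for Control against WT basal cells, and 14.3% and 30.9% for Mir182ΔM/ΔM against WT cells after RANKL. With TMM factors fewer of all genes were higher and more lower in WT cells with RANKL and in Control cells. The reverse held between the genotypes after RANKL (counts given above). Of 14 junction and microprocessor genes tested beside Plekha7, 11 rose and none fell in WT cells with RANKL, with a median of 0.65 beside 0.19 for all genes, and 10 rose with TMM factors. In Mir182ΔM/ΔM cells 9 rose and 1 fell. Afdn, which encodes the junction protein afadin, rose from 30.9 and 27.7 CPM to 134 and 125 CPM in WT cells (difference 2.11, limma adjusted p = 8.6e-07). Camsap3, a microtubule minus-end protein bound by PLEKHA7, rose by 1.78 (limma adjusted p = 2.06e-05) and Tspan33, a tetraspanin of the same junctional complex, by 1.68 (limma adjusted p = 0.000187).

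In Mir182ΔM/ΔM cells Afdn, Camsap3 and Tspan33 also rose, by 1.52, 1.36 and 0.97 (limma adjusted p = 5.01e-06, 9.85e-05 and 0.00328), whereas Plekha7 fell. Between Control and WT basal cells 10 of the 14 were higher and none lower, with a median of 0.74, and with TMM factors 9 were higher and 1 lower. After RANKL 3 were higher and 3 lower in Mir182ΔM/ΔM than in WT cells, and 4 and 2 with TMM factors.

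Beside Jazf1, 20 genes of the NuA4/TIP60 complex and its partners were tested, and 10 rose and none fell in WT cells, where Jazf1 fell, but with TMM factors 6 rose and 3 fell. The 3 with the greatest change were Ruvbl2, Ruvbl1 and Mrgbp, complex subunits that rose by 1.03, 0.82 and 0.78 (limma adjusted p = 0.000695, 0.00253 and 0.000551). In Mir182ΔM/ΔM cells 8 rose and 1 fell (8 and 2 with TMM factors). Nr2c2, the gene of TR4, had a mean of 94.7 CPM in WT and 64.2 CPM in Mir182ΔM/ΔM cells after RANKL (difference -0.55, limma adjusted p = 0.000565) and was named after its values were seen.

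Beside Gpatch2, 9 of 20 G-patch and helicase genes rose in WT cells and 8 in Mir182ΔM/ΔM cells (7 and 8 with TMM factors). The rises were near the 40.6% and 30.5% of all genes called higher. None of the 20 fell in either, beside 22% and 26.3% of all genes called lower. Nkrf, Pinx1 and Gpatch4 rose by 1.21, 1.19 and 1.01 in WT cells (limma adjusted p = 0.000284, 0.00267 and 0.00813) and by 0.89, 0.83 and 0.997 in Mir182ΔM/ΔM cells (limma adjusted p = 0.00154, 0.0157 and 0.00956), where Gpatch2 fell. Between the genotypes after RANKL no gene of this list passed by limma, and 1 was higher with TMM factors.

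Of 8 other annexins tested beside Anxa9, 3 rose and 4 fell in WT cells (2 and 5 with TMM factors), and 3 rose and 3 fell in Mir182ΔM/ΔM cells. Anxa1 and Anxa2, which bind membranes in the presence of calcium, rose by 2.16 and 0.80 in WT cells (limma adjusted p = 1.09e-05 and 0.00125). Anxa3 fell by 1.91 (limma adjusted p = 9.2e-06). Only Anxa1 of the 8 was higher in Control than in WT basal cells (0.99, limma adjusted p = 0.000433), while 3 were lower and 4 with TMM factors.

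Of 12 genes of actin capping tested beside Capza1, 3 rose and 5 fell in WT cells, and 1 rose and 8 fell with TMM factors. Capzb, which encodes the β subunit that pairs with CAPZA1, fell by 0.29 in WT cells (limma adjusted p = 0.00334) and by 0.36 in Mir182ΔM/ΔM cells (limma adjusted p = 0.00128), where Capza1 rose or did not pass, and was named after its values were seen. Eps8 and Twf1, both of proteins that bind actin ends or monomers, fell by 1.17 and 1.004 in WT cells (limma adjusted p = 1.45e-05 and 5.71e-05), and Twf2 rose by 0.78 (limma adjusted p = 0.00115).

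Beside Cspg4, 7 of 13 genes of other chondroitin sulfate proteoglycans and NG2 ligands were tested, and 4 rose and 2 fell in WT cells (4 and 3 with TMM factors). Vcan, the gene of the chondroitin sulfate proteoglycan versican, was at 2.32 and 2.44 CPM in WT basal cells and 49.2 and 44.6 CPM with RANKL, and at 224 and 219 CPM in Mir182ΔM/ΔM cells with RANKL. After RANKL it was 2.22 higher on the log2 scale in Mir182ΔM/ΔM than in WT cells (limma adjusted p = 9.12e-06), the direction of Cspg4. Mmp14, a membrane metalloproteinase, held 269 and 304 CPM in WT and 30.1 and 32.2 CPM in Mir182ΔM/ΔM cells after RANKL (difference -3.16, limma adjusted p = 2.06e-06), the opposite direction. Lgals3, the gene of the NG2 ligand galectin-3, fell by 0.71 in WT cells with RANKL (limma adjusted p = 0.000281) and was named after its values were seen.

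Eif2ak2 and Elovl6 share with Jazf1 and Gpatch2 a list that the study chose on these samples and a target database, so their direction at baseline is not independent evidence. Eif2ak2 encodes the kinase PKR and held a match to the shorter site, aaccgaggcttcTGCCAAAtcttccctgtc (chr17:78852614-78852643, minus strand, capitals as above), whereas Elovl6 held none in a 3′ UTR of up to 5005 bases. In the study a miR-182 mimic lowered a luciferase reporter with the Eif2ak2 3′ UTR, and mutating the seed match abolished this. The study also reported that miR-182 regulated PKR mRNA and protein in Mir182ΔM/ΔM and Mir182mTg cells. Here Eif2ak2 was 2.94 times higher in Mir182ΔM/ΔM than in WT cells after RANKL (difference 1.55, limma adjusted p = 3.01e-05). It did not differ detectably between Control and WT basal cells (0.06, 95% interval -0.16 to 0.27, limma adjusted p = 0.659). Of the 6 genes, Cspg4 shared the higher level after RANKL but was far apart between the references. Elovl6, a fatty acid elongase gene, fell with RANKL in both genotypes, with differences of -1.51 in WT and -2.52 in Mir182ΔM/ΔM cells (limma adjusted p = 7.55e-05 and 7.44e-06), as Jazf1 did.

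In the GENCODE annotation Plekha7 (chr7:116123485-116308376, minus strand), Jazf1 (chr6:52768797-53068631, minus strand), Gpatch2 (chr1:187215508-187351704, plus strand) and Cspg4 (chr9:56865033-56899870, plus strand) shared no exon bases with an overlapping gene. Anxa9 (chr3:95296096-95307176, minus strand) shared 71 of its 2073 exon bases with Mindy1 on the other strand and 94 with 6330562C20Rik, and Capza1 (chr3:104822779-104864505, minus strand) shared 166 of 3781 with St7l on the other strand. The library kit named in the labels does not mark strand by default, so reads in those bases cannot be assigned. Mindy1, listed as Fam63a, fell by 0.997 in WT cells with RANKL (limma adjusted p = 8.25e-06), opposite to Anxa9, and St7l rose by 0.43 (limma adjusted p = 0.0152).

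Among the 24 nearest tested neighbours, 2 on each side of each gene and chosen after the data were seen, 8 were higher and 5 lower in Control than in WT basal cells, shares near the 32.4% and 19.5% of all genes. The greatest difference was that of Lyplal1 beside Gpatch2 (-1.80, limma adjusted p = 7.23e-07), opposite to Gpatch2. Lyplal1 was also below its WT basal level in Mir182ΔM/ΔM basal cells (-2.14, limma adjusted p = 0.000127), where no other neighbour was called. In WT cells after RANKL it was lower as well (-1.71, limma adjusted p = 8.46e-06). Odf3l1, which ends 0.354 kilobases before Cspg4, differed by 0.94 there (limma adjusted p = 9.76e-05), beside 4.43 for Cspg4.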

How the data were processed

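RNA-seq of 12 mouse macrophage libraries was used. The authors deposited CPM values for the 8 loss of function libraries and raw counts per gene for the 4 gain of function libraries, with RPKM beside them in the first replicates, from which gene lengths were taken. Per the submitters' processing notes, the tools named are TopHat, Cufflinks, HISAT2, HTSeq and edgeR with mm10. Counts were scaled to CPM, and the deposited CPM gave whole reads for 100% of values (tolerance 0.05 read). Of 24421 rows, 27 with names turned into numbers were left out of tests.

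Genes at 1 CPM or more in at least 2 libraries were fitted by limma 3.58.1 (R 4.3.3) on log2(CPM + 1), in the 8 loss of function libraries or, for Control against WT, in all 12. Mir182mTg against Control was fitted on the counts by edgeR 4.0.16. Calls used a Benjamini-Hochberg adjusted p under 0.05. Scripts were tested on simulated data.

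The 6 genes and the partner lists were chosen with earlier results of these data known. Named partners were the 3 of each list at 5 CPM or more with the greatest RANKL change in WT that passed, and the most alike genes were the 2 with the highest r at a mean of 5 CPM or more. A further gene that these rules select is not reported here.

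Replicate numbers paired the libraries: deviations of same-numbered libraries from their group means correlated at 0.749 to 0.828 in all 15 pairs of groups. The main fits leave this pairing out, so their SE, adjusted p and shares of all genes called do not account for it. The replicate block is the alternative that does. Alternatives were scaling, pseudocount, filter, replicate block, tool (DESeq2 1.42.0 for the counts) and leaving out libraries.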

Additional observations from a re-analysis of the deposited data

Results flagged for a closer look

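The response to RANKL differed between Mir182ΔM/ΔM and WT cells by the interaction term of limma for the genes below, as for 7.46% of all genes upward and 17.2% downward. For the 6 genes the Mir182ΔM/ΔM response minus the WT response on the log2 scale was -3.41 for Plekha7, -0.83 for Jazf1, -1.27 for Gpatch2, -0.72 for Anxa9, -0.28 for Capza1 and 1.39 for Cspg4 (limma adjusted p from 0.000115 to 0.0371). The term contains the basal difference that chose these genes, which favours the negative sign, so the 5 negative values are a description. The Jazf1 term passed in 5 of 15 alternatives and the Capza1 term in 4 of 15. The term was 1 for Eif2ak2 and -1.01 for Elovl6 (limma adjusted p = 0.0024 and 0.0098).

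Among the partners it was -0.59 for Afdn and -2.33 for Mmp14 (limma adjusted p = 0.00758 and 0.000112), whose rises were smaller in Mir182ΔM/ΔM cells. It was 1.94 for Vcan (limma adjusted p = 0.0002), whose rise was larger there. It was 0.59 for Eps8, -0.89 for Twf2 and -0.43 for Nr2c2 (limma adjusted p = 0.00805, 0.00956 and 0.0159). Cdh1, named outside the rule, had 0.62 (limma adjusted p = 0.0243) from low levels. It was at 1.08 and 1.42 CPM in Mir182ΔM/ΔM cells after RANKL and at most 0.324 CPM in the other loss of function libraries. Plekha5 and Ctnna1 of the junction genes also passed, with -0.85 and -0.39 (limma adjusted p = 0.0187 and 0.0372). Every term includes the WT libraries after RANKL, whose Lyz2 and Ifi202b levels differ from those of the other 3 loss of function groups, and the part of that difference was not tested.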

How the results depend on the processing

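All 83 alternative values of the 6 genes for Control against WT kept their direction and call. The choice of genes favours that direction, so this stability is a description and not support for it. With Control in place of WT basal cells, 1 gene was higher and 3 lower in WT cells after RANKL, the differences of Capza1 (-0.19) and Cspg4 (-2.84) reversed, and that of Plekha7 was near 0 (-0.016). The choice of genes as high in Control cells favours these lower values. For the genotypes after RANKL, 0 of the 6 genes were lower with TMM factors, quantile normalization, the compared libraries alone or edgeR on recovered reads, and 0 to 1 when single libraries were left out. TMM factors gave 2353 lower genes there. For the interaction, 3 of the 6 were lower with TMM factors (1273 genes lower), 2 with quantile normalization and 3 with edgeR (1110 genes lower), and leaving out single libraries gave 3 to 4 of the 6 and 1271 to 1544 genes.

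With the replicate block, 2737 genes were higher and 5809 lower after RANKL, 1885 and 4993 in the interaction, 999 and 560 for basal Mir182ΔM/ΔM against WT, and 404 and 371 for Mir182mTg against Control. The block changed no call of the 6 genes other than those of Capza1 and Gpatch2 given above. The block with TMM factors, chosen after seeing the data as were edgeR on recovered reads and leaving out the WT libraries after RANKL, gave 4709 lower genes for RANKL in WT, 4101 higher after RANKL with 2 of the 6 genes higher (Capza1 turned to 0.15), and 4326 lower for Control against WT.

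In the contrasts that chose the genes, leaving out the WT libraries after RANKL gave 79 lower genes for basal Mir182ΔM/ΔM cells, and leaving out single libraries gave 69 to 102 higher and 28 to 34 lower genes with 2 to 3 of the 6. For Mir182mTg, DESeq2 gave 57 higher and 67 lower genes, no filter 68 and 68, and leaving out single libraries 32 to 84 and 24 to 74. The causes were not tested. With 2 libraries a group and 10 and 20 reads of Plekha7 in WT basal cells, its fold has little precision.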
